A study of Mus musculus with 6 samples.

Results

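The Rab genes encode the largest family of small GTPases that direct vesicles between the compartments of a cell. Rows of the deposited table were taken as members when the symbol was Rab, a number and at most 2 further letters or digits, apart from Rab3ip, which has such a symbol but encodes an exchange factor. This rule found 61 of 24940 rows, of which 59 were genes of Rab GTPases and 2 were noncoding transcripts named for the strand opposite a Rab gene. Of the 59 GTPase genes, 43 reached 0.5 FPKM (fragments per kilobase of exon, scaled to the mapped reads of a library) in at least 2 libraries and were tested, and 16 lay under this filter.

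RNA-seq was performed on bone marrow-derived macrophages (BMMs) under 3 conditions, RANKL + LEA, RANKL and no RANKL, with 2 libraries each. All 6 libraries came from cells given 30 ng/mL M-CSF, a survival and growth factor of macrophages. RANKL, which drives such precursors towards osteoclasts, was used at 100 ng/mL. LEA, an ethyl acetate fraction of a water extract of the shiitake mushroom Lentinula edodes, was added to RANKL at 10 µg/mL. The labels describe primary cells from C57BL/6 mice aged 6 to 8 weeks, TRIzol extraction and a standard Illumina library, whereas the methods describe male ICR mice, an RNeasy kit and a SMARTer Stranded kit. The time of harvest for RNA-seq, a solvent given to cells without LEA, and any separate cultures or animals behind the 2 libraries of each condition are stated neither in the labels nor in the methods. What the p-values measure is therefore the spread between these samples alone, and it may be technical.

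A Rab protein is switched on when an exchange factor replaces its GDP with GTP, and switched off when a GTPase-activating protein (GAP) speeds hydrolysis. In the active form it sits on a membrane and recruits effectors such as tethers and motor adaptors, and in the inactive form it returns to the cytosol. Osteoclasts use this traffic to fuse lysosome-like vesicles with the membrane that faces bone, which builds the ruffled border and releases acid and proteases. Rab7 and Rab3d are the members best known for this step.

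The FPKM step of 1 read gave a depth of 47815840 and 49593336 mapped reads for RANKL + LEA, 47736688 and 46380608 for RANKL, and 47728144 and 48298680 for no RANKL. The 2 libraries of a condition had a Pearson r of 0.985 for RANKL + LEA, 0.987 for RANKL and 0.988 for no RANKL across 11905 genes, which are not independent replicates. All 9 osteoclast markers measured were called higher in RANKL than in no RANKL and all 9 were called lower in RANKL + LEA than in RANKL, where 17.8% and 1.77% of all genes tested were so called. Their summed level was 2697 and 2557 FPKM in RANKL + LEA, 5948 and 5112 FPKM in RANKL, and 28.1 and 29.7 FPKM in no RANKL. Mean levels of Acp5, the acid phosphatase of osteoclasts, were 1201, 2295 and 11.2 FPKM in RANKL + LEA, RANKL and no RANKL, those of Ctsk, cathepsin K, were 115, 216 and 0.0265 FPKM, and those of Mmp9, a matrix protease, were 957, 2356 and 12.4 FPKM. The call of Ctsk with LEA ended without any 1 of the 4 libraries compared (limma adjusted p between 0.109 and 0.176), and that of Acp5 without RANKL + LEA replicate 2 (0.0685) or RANKL replicate 1 (0.0765). Of 7 macrophage markers, 6 were called lower in RANKL than in no RANKL and 4 were called higher in RANKL + LEA than in RANKL, against 17.8% and 4.54% of all genes tested. The M-CSF receptor Csf1r averaged 323, 350.4 and 597 FPKM in RANKL + LEA, RANKL and no RANKL, the surface receptor Adgre1 179.8, 101 and 279.7 FPKM, and Cd68, a lysosomal glycoprotein, 474, 599.5 and 541 FPKM. The call of Adgre1 with LEA ended without RANKL + LEA replicate 1 (limma adjusted p = 0.0701), RANKL replicate 1 (0.0603) or RANKL replicate 2 (0.0943).

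In all libraries a few members carried much of the Rab RNA. Rab7, the Rab of late endosomes and lysosomes, had the highest level in every library, with 215 and 198 FPKM in RANKL + LEA, 222 and 204 FPKM in RANKL, and 149.8 and 167 FPKM in no RANKL. Rab1b and Rab1a, which act between the endoplasmic reticulum (ER) and the Golgi, Rab5c, a Rab of early endosomes, and Rab14, which acts between the Golgi and endosomes, followed it. Together with Rab7 they held 44.8% and 44.4% of the summed Rab FPKM in RANKL + LEA, 45.5% and 45.7% in RANKL, and 42.6% in each no RANKL library. The summed level of the 59 genes was 1331 and 1206 FPKM in RANKL + LEA, 1288 and 1150 FPKM in RANKL, and 1277 and 1390 FPKM in no RANKL. These sums overlapped between the conditions. As a share of the summed FPKM of all genes, RANKL + LEA (0.359% and 0.346%) and RANKL (0.349% and 0.326%) overlapped each other. All of these shares lay under the 0.365% and 0.360% of no RANKL, the nearest, 0.359% and 0.360%, by a narrow margin. Sums and shares are weighted towards the abundant members and were not tested.

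**Figure D1:**
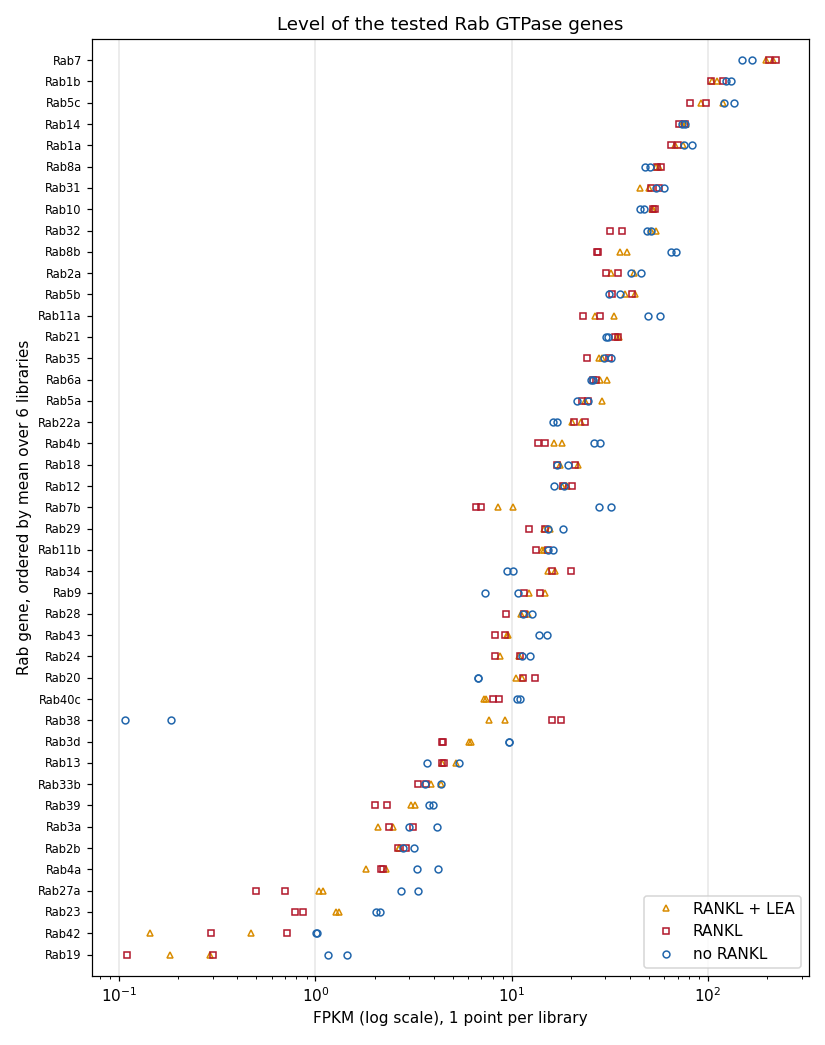
Level in FPKM (log axis) of the 43 tested Rab GTPase genes, ordered by their mean over the 6 libraries, with 1 point per library. Rab7 is at the top with 149.8 to 222 FPKM, and Rab38 is the gene whose 2 no RANKL points, 0.107 and 0.184 FPKM, lie far to the left of its other points.

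The first comparison asked which Rab genes differed once RANKL was given. A gene was called when its limma p, adjusted by Benjamini-Hochberg over all genes tested, was under 0.05 and its level differed by at least 1.5-fold. In RANKL against no RANKL, 3 of 43 Rab genes rose and 11 fell. Over all 11905 genes tested, 17.8% were called higher and 17.8% were called lower. The median log2 fold change was -0.20 over the Rab genes and 0.00060 over all genes tested. Both libraries of RANKL lay above both libraries of no RANKL for 10 Rab genes, where 37.9% of all genes did so, and below them for 21, where 37.1% of all genes did so. In bulk RNA, fewer cells of a type and less RNA per cell cannot be told apart. The genes that rose were Rab38, Rab34 and Rab20, and those that fell were Rab7b, Rab27a, Rab3d, Rab8b, Rab11a, Rab4a, Rab4b, Rab19, Rab23, Rab39 and Rab43.

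**Figure D2:**
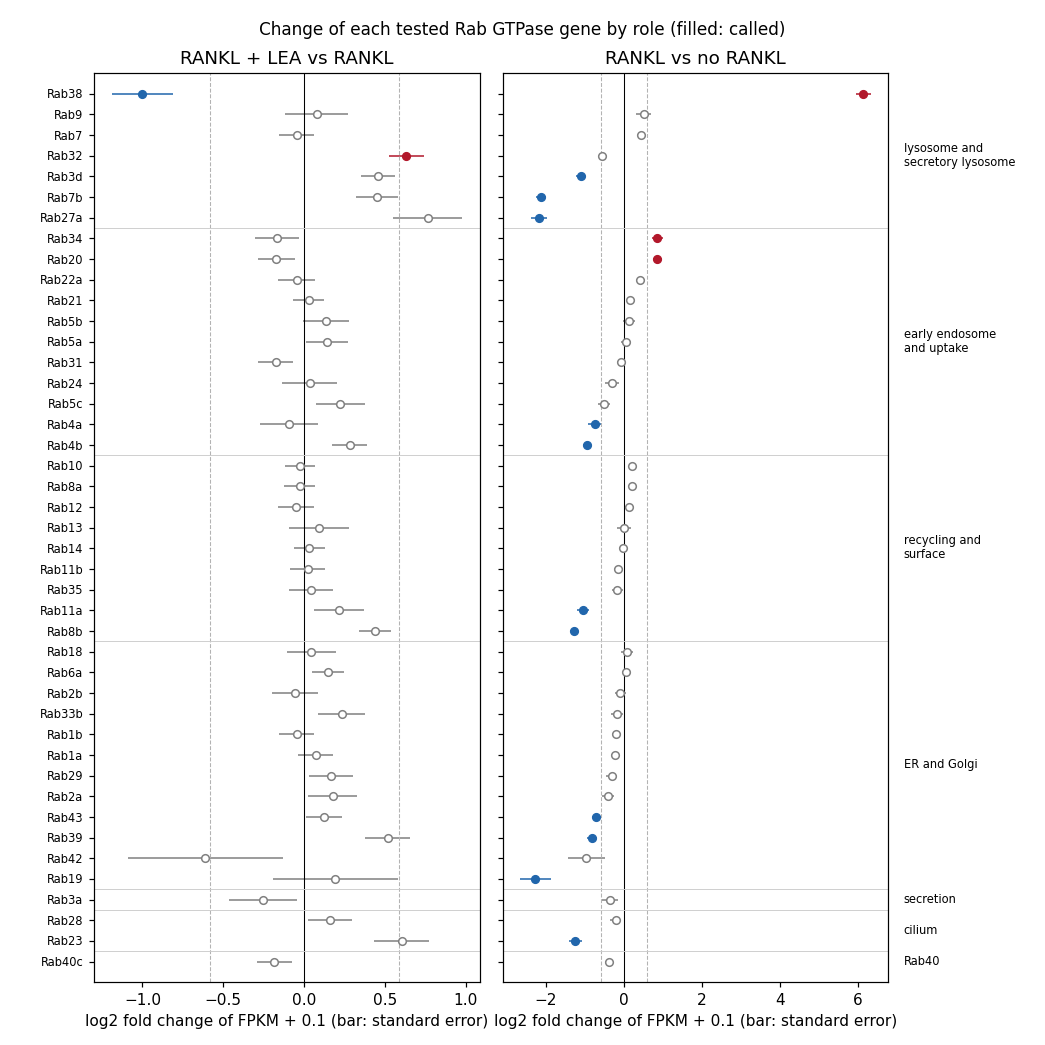
Log2 fold change of FPKM + 0.1 with its standard error for the 43 tested Rab GTPase genes, grouped by role, in RANKL + LEA against RANKL (left) and in RANKL against no RANKL (right, wider axis). Filled points were called, 1 higher and 1 lower on the left and 3 higher and 11 lower on the right, and the dashed lines mark 1.5-fold.

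The largest difference among the Rab genes was that of Rab38, which with its close relative Rab32 sends cargo to lysosome-related organelles such as melanosomes (chr7:88430273-88491572, mm10, plus strand). Its level was 9.29 and 7.62 FPKM in RANKL + LEA, 17.9 and 16.1 FPKM in RANKL, and 0.107 and 0.184 FPKM in no RANKL. These values rest on 698 and 594 reads, 1342 and 1172 reads, and 8 and 14 reads. The 3 conditions did not overlap, with RANKL highest and no RANKL close to absent. Rab38 rose by 6.14 ± 0.19 (SE) on the log2 scale of FPKM + 0.1 in RANKL, with a limma adjusted p of 2.5e-07, and the ratio of the mean FPKM was 117. Because the level in no RANKL was near 0, the log2 fold change depends on the pseudocount and ran between 3.97 at a pseudocount of 1 FPKM and 6.82 at 0.01 FPKM. Melanocyte markers summed to 0.480 and 0.381 FPKM in RANKL + LEA, 0.445 and 0.288 FPKM in RANKL, and 0.512 and 0.377 FPKM in no RANKL, with Dct and Tyrp1 at 0 in every library. Rab38 moved with the osteoclast marker sum, and the part of cell composition in its level was not tested.

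Of 7 tested genes of the lysosome, secretory lysosome and lysosome-related organelle group, 1 gene rose in RANKL (Rab38), 3 fell and 3 were not called. Of all genes, 17.8% were called in each direction. The median log2 fold change of the 7 was -0.55. Both libraries of RANKL lay above both of no RANKL for 3 of the 7, which were Rab38, Rab7 and Rab9, and below them for the other 4. Among all genes tested, 37.9% lay above and 37.1% below in this way. Rab7 differed by 0.43 ± 0.11 (SE) on the log2 scale in RANKL, with a limma adjusted p of 0.0117, and this is under the 1.5-fold limit. Its share of the summed Rab FPKM was 16.2% and 16.4% in RANKL + LEA, 17.2% and 17.8% in RANKL, and 11.7% and 12% in no RANKL. Rab7b, a relative of Rab7 that acts between late endosomes and the Golgi (chr1:131688695-131715439), was at 10.1 and 8.51 FPKM in RANKL + LEA, 6.96 and 6.56 FPKM in RANKL, and 27.8 and 32.0 FPKM in no RANKL. The highest values were those of no RANKL and the lowest those of RANKL, without overlap. Rab7b fell by 2.13 ± 0.13 on the log2 scale in RANKL, with a limma adjusted p of 7.4e-06.

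Rab27a and Rab3d, which dock and release secretory granules and secretory lysosomes, fell in RANKL as well. The level of Rab27a (chr9:73044810-73097614) was 1.05 and 1.09 FPKM in RANKL + LEA, 0.696 and 0.496 FPKM in RANKL, and 2.74 and 3.33 FPKM in no RANKL. That of Rab3d (chr9:21907492-21918183) was 6.18 and 6.09 FPKM in RANKL + LEA, 4.43 and 4.46 FPKM in RANKL, and 9.73 and 9.71 FPKM in no RANKL. For each gene RANKL was lowest and no RANKL highest, with no overlap among the 3 conditions. In RANKL, Rab27a fell by 2.18 ± 0.21 and Rab3d fell by 1.11 ± 0.11 on the log2 scale (SE), with limma adjusted p of 9.3e-05 and 8.7e-05. Mast cell markers, whose cells are rich in secretory granules, summed to between 0 and 0.0380 FPKM, and 5 of 6 of them (Cma1, Cpa3, Mcpt4, Ms4a2 and Tpsb2) were at 0 in every library. Rab32 was at 54.6 and 51.0 FPKM in RANKL + LEA, 36.4 and 31.8 FPKM in RANKL, and 48.6 and 51.2 FPKM in no RANKL. RANKL was thus the lowest condition for Rab32 also, but the log2 fold change of -0.55 ± 0.11 against no RANKL (limma adjusted p = 0.00364) did not reach 1.5-fold. Rab9, which returns receptors from late endosomes to the Golgi, was at 13.9 and 11.6 FPKM in RANKL and 7.33 and 10.8 FPKM in no RANKL and was not called (log2 fold change 0.51, limma adjusted p = 0.0625).

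**Figure D3:**
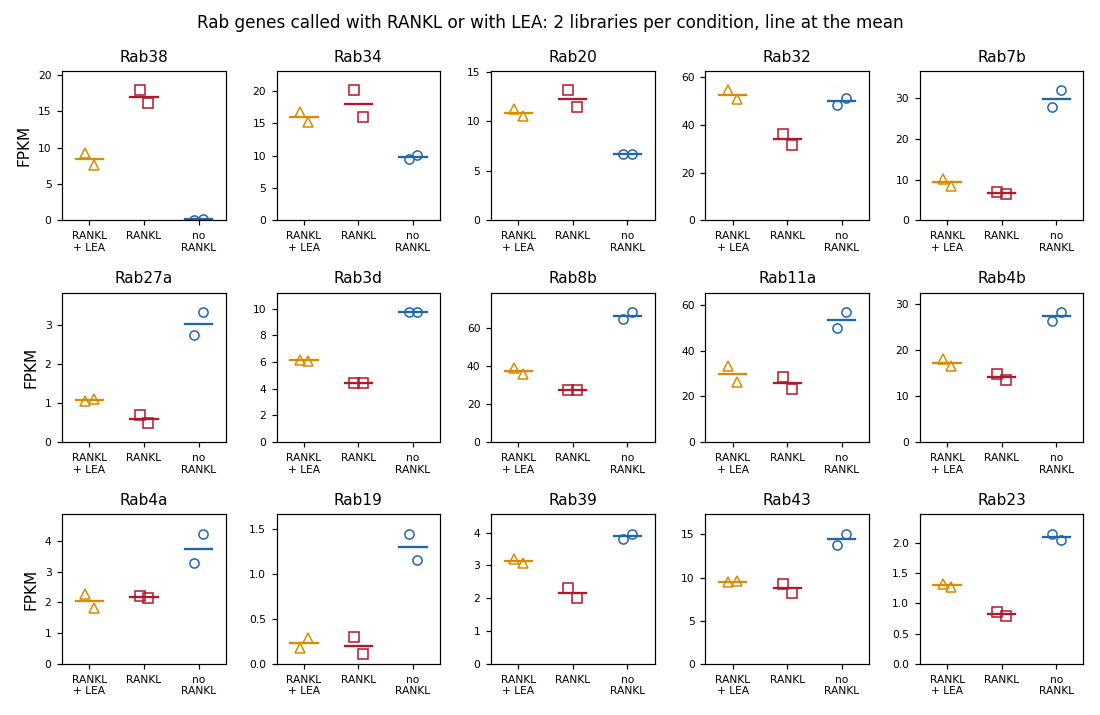
FPKM of 15 Rab genes called in RANKL against no RANKL or in RANKL + LEA against RANKL, each panel on its own axis starting at 0, with 1 point per library and a line at the mean of 2. Rab38 is highest in RANKL at 17.9 and 16.1 FPKM, and in the panels of Rab7b, Rab27a, Rab3d and Rab8b the RANKL + LEA points lie between those of RANKL and no RANKL.

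Among the Rab genes of early endosomes and uptake, 2 of 11 tested rose and 2 fell in RANKL, against 17.8% of all genes in each direction. Their median log2 fold change was 0.05. Rab34, which acts in macropinocytosis and phagosome maturation (chr11:78188427-78192193), was at 16.7 and 15.2 FPKM in RANKL + LEA, 20.1 and 15.9 FPKM in RANKL, and 9.48 and 10.2 FPKM in no RANKL. Rab20, found on phagosomes and early endosomes of macrophages (chr8:11453977-11478499), was at 11.3 and 10.5 FPKM in RANKL + LEA, 13.1 and 11.5 FPKM in RANKL, and 6.73 and 6.71 FPKM in no RANKL. For both genes the no RANKL libraries were lowest and did not overlap the others. Each rose by 0.86 on the log2 scale in RANKL, with an SE of 0.14 and a limma adjusted p of 0.00117 for Rab34, and an SE of 0.12 and an adjusted p of 5.3e-04 for Rab20. The exons of Rab20 share 356 bases with E230013L22Rik on the opposite strand, which averaged 2.13 FPKM over the 6 libraries. Rab4a and Rab4b, which return cargo quickly from early endosomes to the surface, fell. Rab4b was at 14.8 and 13.6 FPKM in RANKL and at 26.4 and 28.2 FPKM in no RANKL, a log2 fold change of -0.94 ± 0.11 (limma adjusted p = 2.3e-04). Rab4a was at 2.20 and 2.15 FPKM in RANKL and at 3.27 and 4.22 FPKM in no RANKL, a log2 fold change of -0.75 ± 0.18 (limma adjusted p = 0.00996). The call of Rab4a ended without RANKL replicate 2 (adjusted p = 0.0549) and without no RANKL replicate 2 (adjusted p = 0.0773). The main Rab of early endosome fusion, Rab5, has 3 genes here. Rab5c was at 98.2 and 81.4 FPKM in RANKL and 121 and 135 FPKM in no RANKL, and its log2 fold change of -0.52 (limma adjusted p = 0.0240) was under the fold limit. Rab5a and Rab5b had log2 fold changes of 0.05 and 0.13 and were not called. Rab22a, which acts from early endosomes on, had a log2 fold change of 0.41 (limma adjusted p = 0.0184), again under the fold limit. Rab21, Rab24 and Rab31 were not called, with values of 0.16, -0.31 and -0.08.

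The promoter windows of Rab34, Rab20 and Rab32 are shown because Rab34 and Rab20 are genes that rose in RANKL and Rab32 is the gene that rose with LEA. The sequences are from RefSeq on GRCm38.p6, the build that mm10 names, and run 5′ to 3′ on the strand of the gene for 300 bases, with 250 before the start and 50 from it on. Promoter entries were matched by symbol for 48 of the 59 Rab GTPase genes, with 60 windows in all. Rab38 was among the 11 genes without an entry and so is not shown. Capitals mark matches on either strand to 5 motifs: CACGTG and TCATGTG, bound by MITF and TFE factors, TGGAAA, the core bound by NFAT, TGANTCA, bound by AP-1, and GAGGAAG, bound by PU.1.
Rab34: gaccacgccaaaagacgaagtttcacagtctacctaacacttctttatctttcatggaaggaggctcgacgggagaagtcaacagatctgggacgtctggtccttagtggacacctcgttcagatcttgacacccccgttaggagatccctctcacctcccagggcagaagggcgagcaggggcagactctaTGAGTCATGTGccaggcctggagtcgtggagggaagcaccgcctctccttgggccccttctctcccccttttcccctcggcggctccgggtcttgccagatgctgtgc
Rab20: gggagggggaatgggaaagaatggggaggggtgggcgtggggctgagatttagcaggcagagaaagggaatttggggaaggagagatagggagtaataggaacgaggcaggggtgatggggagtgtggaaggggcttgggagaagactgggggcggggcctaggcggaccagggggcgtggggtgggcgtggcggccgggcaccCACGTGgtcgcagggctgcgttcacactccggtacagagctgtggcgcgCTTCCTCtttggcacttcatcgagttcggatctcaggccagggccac
Rab32: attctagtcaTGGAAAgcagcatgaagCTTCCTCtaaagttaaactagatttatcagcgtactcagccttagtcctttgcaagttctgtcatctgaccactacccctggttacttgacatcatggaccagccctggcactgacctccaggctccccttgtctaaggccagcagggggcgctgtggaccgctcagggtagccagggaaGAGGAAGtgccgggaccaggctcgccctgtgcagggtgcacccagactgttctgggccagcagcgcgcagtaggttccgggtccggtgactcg
The window of Rab34 (chr11:78188177-78188476, plus strand) holds TGAGTCA at -58 and TCATGTG at -54, which overlap each other. A further window of Rab34, which is not shown, holds TGGAAA. The window of Rab20 (chr8:11478591-11478890, minus strand), set on a RefSeq start upstream of the transcript in the table, holds CACGTG at -46 and CTTCCTC, which is GAGGAAG on the other strand, at 3. That of Rab32 (chr10:10558158-10558457, minus strand) holds TGGAAA at -240, CTTCCTC at -223 and GAGGAAG at -43, counted from 0 at the start base of the gene. Of the Rab windows, 10.0% hold CACGTG, 5.0% TCATGTG, 20.0% TGGAAA, 5.0% TGANTCA and 13.3% GAGGAAG. Among all 32851 windows of this length the shares were 7.15%, 3.77%, 21.4%, 7.81% and 13.6% in the same order. These matches describe letters and do not show that a factor was bound.

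For recycling and delivery to the surface, 0 of 9 tested genes rose in RANKL and 2 fell, against 17.8% of all genes in each direction. The 2 were Rab8b and Rab11a. They were also the only genes of the group at an unadjusted limma p under 0.05, where 6634 of all 11905 genes tested were. The median log2 fold change of the group was -0.02. Rab8b, which carries cargo from the Golgi and recycling endosomes to the surface (chr9:66843664-66919705), was at 38.7 and 35.6 FPKM in RANKL + LEA, 27.4 and 27.3 FPKM in RANKL, and 64.7 and 68.3 FPKM in no RANKL. It fell by 1.28 ± 0.10 on the log2 scale in RANKL (limma adjusted p = 2.6e-05). Its relative Rab8a was at 57.5 and 54.8 FPKM in RANKL and 47.5 and 50.5 FPKM in no RANKL, and was not called (log2 fold change 0.20, limma adjusted p = 0.126). Rab11a, the Rab of the slow recycling endosome (chr9:64715300-64737756), was at 33.2 and 26.4 FPKM in RANKL + LEA, 28.3 and 23.0 FPKM in RANKL, and 49.7 and 56.7 FPKM in no RANKL. RANKL and RANKL + LEA overlapped for Rab11a, and both lay under no RANKL. In RANKL it fell by 1.05 ± 0.15 on the log2 scale (limma adjusted p = 7.7e-04), and its relative Rab11b had a log2 fold change of -0.15 and was not called. The levels of Rab14 were close in all conditions, with 77.5 and 73.9 FPKM in RANKL + LEA, 76.7 and 71.4 FPKM in RANKL, and 73.8 and 76.7 FPKM in no RANKL, and a log2 fold change of -0.02 ± 0.10 in RANKL. Rab10, Rab12, Rab13 and Rab35 had log2 fold changes between -0.17 and 0.21 and were not called.

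Of 12 tested genes of the ER and Golgi group, 0 rose and 3 fell in RANKL, against 17.8% of all genes in each direction. An unadjusted limma p under 0.05 was found for 4 of the 12, and for 6634 of all 11905 genes tested. Rab43, which acts at the ER and Golgi, was at 9.49 and 9.59 FPKM in RANKL + LEA, 9.29 and 8.25 FPKM in RANKL, and 13.8 and 15.0 FPKM in no RANKL. It fell by 0.71 ± 0.11 on the log2 scale in RANKL (limma adjusted p = 0.0013), and 4164 of its exon bases are shared with Gm45140 on the same strand, so the reads of these genes cannot be told apart. Rab39, which acts in phagosome and autophagosome maturation, was at 3.20 and 3.06 FPKM in RANKL + LEA, 2.32 and 2.01 FPKM in RANKL, and 3.81 and 3.96 FPKM in no RANKL. It fell by 0.82 ± 0.14 in RANKL (limma adjusted p = 0.00171), with RANKL lowest and no overlap among the conditions. Rab19, a Golgi Rab, was at 0.301 and 0.109 FPKM in RANKL and 1.45 and 1.16 FPKM in no RANKL, on 20 and 7 reads in RANKL and 96 and 78 reads in no RANKL. Its log2 fold change was -2.27 ± 0.39 (limma adjusted p = 0.00181), the widest SE among the 14 Rab genes called in RANKL. The abundant members Rab1b and Rab1a had log2 fold changes of -0.20 and -0.22, and Rab6a, which works at the Golgi, of 0.05, and none of the 3 was called. Rab2a, Rab2b, Rab18, Rab29 and Rab33b had log2 fold changes between -0.41 and 0.07 without a call, and that of Rab42 was -0.97 (limma adjusted p = 0.129). In the cilium group Rab23, a brake on Hedgehog signalling, was at 1.32 and 1.28 FPKM in RANKL + LEA, 0.86 and 0.785 FPKM in RANKL, and 2.14 and 2.04 FPKM in no RANKL. Rab23 fell by 1.25 ± 0.17 on the log2 scale in RANKL (limma adjusted p = 6.0e-04), and Rab28 was not called. Rab3a, known from synaptic vesicles, and Rab40c, which joins a ubiquitin ligase, were the only tested members of their groups and were not called, with log2 fold changes of -0.36 and -0.38. The limma adjusted p was 0.193 for Rab3a and 0.0204 for Rab40c, which was under the fold limit.

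The second comparison asked how the Rab genes stood when LEA was given with RANKL. It uses the RANKL libraries of the first comparison again, so the 2 sets of fold changes are not independent and are given side by side only. In RANKL + LEA against RANKL, 1 of 43 Rab genes rose, Rab32, and 1 fell, Rab38. Over all genes tested, 4.54% were called higher and 1.77% lower, or 540 and 211 genes, and quantile normalization gave 439 and 328. With any 1 of the 4 libraries compared left out, 108 to 277 genes were called higher and 11 to 73 lower. By unadjusted limma p under 0.05, 9 of 43 Rab genes differed, as did 2807 of all 11905 genes tested. The median log2 fold change was 0.07 over the Rab genes and 0.05 over all genes tested. Groups did not overlap in the higher direction for 11 Rab genes, where 30.1% of all genes did so, and in the lower direction for 4, where 20.6% of all genes did so.

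Rab38 fell to 9.29 and 7.62 FPKM in RANKL + LEA, against 17.9 and 16.1 FPKM in RANKL, a log2 fold change of -1.0 ± 0.19 (SE, limma adjusted p = 0.0214). The ratio of the mean levels was 0.498, and the RANKL + LEA level was still 58.1 times that of no RANKL. Rab32 was higher, at 54.6 and 51.0 FPKM in RANKL + LEA against 36.4 and 31.8 FPKM in RANKL, a log2 fold change of 0.63 ± 0.11 (limma adjusted p = 0.0155). With LEA its level was close to the 48.6 and 51.2 FPKM of no RANKL, a log2 fold change of 0.08 (limma adjusted p = 0.595). These paralogs share an exchange factor and a set of cargoes, and they were the only Rab genes called in this comparison. Both calls were lost when any 1 of the 4 libraries compared was left out, with adjusted p between 0.0700 and 0.120 for Rab38 and between 0.0532 and 0.102 for Rab32. The osteoclast marker sum was lower and the macrophage marker sum higher in RANKL + LEA (7181 and 5604 FPKM, against 4350.1 and 3666 FPKM in RANKL). Of the 7 macrophage markers, both RANKL + LEA libraries lay above both RANKL libraries for 5 and below them for 2, Csf1r and Cd68. Among all genes tested, 30.1% lay above and 20.6% below in this way. The part of these marker levels in the results for Rab38 and Rab32 was not tested.

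Further genes lay on the same side of RANKL as Rab32 without a call. Rab3d had a log2 fold change of 0.46 ± 0.11 (limma adjusted p = 0.0409) and Rab8b of 0.44 ± 0.10 (limma adjusted p = 0.0352), both under the 1.5-fold limit. For Rab27a it was 0.76 ± 0.21 (adjusted p = 0.0672), for Rab7b 0.45 ± 0.13 (adjusted p = 0.0726), for Rab23 0.60 ± 0.17 (adjusted p = 0.0725) and for Rab39 0.52 ± 0.14 (adjusted p = 0.0592), all by limma. In each of these 6 genes both libraries of RANKL + LEA lay above both of RANKL and below both of no RANKL. The RANKL libraries enter both comparisons with opposite signs, so these positions do not add to the tests. With limma voom on recovered reads, Rab27a (log2 fold change 0.85, adjusted p = 0.0361) and Rab23 (0.66, adjusted p = 0.0244) were also called higher. Rab34 and Rab20, which rose in RANKL, each had a log2 fold change of -0.17 with LEA and were not called (limma adjusted p = 0.531 and 0.441). Rab7 was at 215 and 198 FPKM in RANKL + LEA and at 222 and 204 FPKM in RANKL, a log2 fold change of -0.05 ± 0.11 (limma adjusted p = 0.857). The early endosome, recycling, ER and Golgi and cilium groups had 0 calls in RANKL + LEA against RANKL, with 1 gene each at an unadjusted limma p under 0.05, and of these groups voom called only Rab23.

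Against no RANKL, RANKL + LEA left 4 Rab genes called higher and 11 called lower, where 15.5% of all genes were called higher and 11.8% lower. Groups did not overlap for 11 Rab genes in the higher direction and 22 in the lower, against 39.7% and 31.1% of all genes. The higher genes were Rab38, Rab34, Rab20 and Rab9, and the lower ones were Rab7b, Rab27a, Rab3d, Rab8b, Rab11a, Rab4a, Rab4b, Rab19, Rab23, Rab42 and Rab43. The log2 fold changes in RANKL + LEA and in RANKL, each against the same no RANKL libraries, were 5.13 and 6.14 for Rab38, -1.67 and -2.13 for Rab7b, -1.42 and -2.18 for Rab27a, -0.84 and -1.28 for Rab8b, and -0.66 and -1.11 for Rab3d. Rab34 and Rab20 each had 0.69 in RANKL + LEA and 0.86 in RANKL, and Rab11a -0.84 and -1.05. Rab9 was called at an adjusted p of 0.0459 by limma with a log2 fold change of 0.59, and leaving out no RANKL replicate 1 gave 0.31 and an adjusted p of 0.268, and its call ended without either RANKL + LEA library as well (adjusted p = 0.203 and 0.0582). Rab42 was at 0.143 and 0.469 FPKM in RANKL + LEA and at 1.003 and 1.02 FPKM in no RANKL (log2 fold change -1.58, limma adjusted p = 0.0322), with RANKL at 0.716 and 0.295 FPKM. The call of Rab42 ended without RANKL + LEA replicate 1 (adjusted p = 0.151), no RANKL replicate 1 (0.0991) or no RANKL replicate 2 (0.0937), and that of Rab23 without any 1 of the 4 libraries compared (adjusted p between 0.0626 and 0.117). Rab43 fell short of 1.5-fold without RANKL + LEA replicate 1 or no RANKL replicate 2. Without no RANKL replicate 2, where Rab4a was lost too (adjusted p = 0.0574), the count of genes called lower was 7 in place of 11.

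Shares of paralogs within a family were computed from FPKM, which is per length, and whether these paralogs stand in for each other was not tested. Rab38 held 14.5% and 13.0% of the Rab32 and Rab38 sum in RANKL + LEA, 32.9% and 33.6% in RANKL, and 0.22% and 0.358% in no RANKL. In all conditions Rab32 thus remained the more abundant of the pair. Rab7b held 4.5% and 4.12% of the Rab7 and Rab7b sum in RANKL + LEA, 3.04% and 3.11% in RANKL, and 15.6% and 16.1% in no RANKL. Rab8b held 40.9% and 39.6% of the Rab8 sum in RANKL + LEA, 32.3% and 33.3% in RANKL, and 57.7% and 57.5% in no RANKL, so that Rab8a was the more abundant form in RANKL and Rab8b in no RANKL. The share of Rab11a in the Rab11a and Rab11b sum was 69.4% and 65.0% in RANKL + LEA, 65.0% and 63.4% in RANKL, and 76.4% and 77.8% in no RANKL. Rab5c held 59.6% to 62.5% of the Rab5 sum in the 4 libraries with RANKL and 69.7% and 69.3% in no RANKL. For Rab3d within the Rab3 genes the shares of no RANKL (76.1% and 69.8%) overlapped those of RANKL + LEA (74.5% and 70.8%), with 58.3% and 65.1% in RANKL. Shares were not tested.

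**Figure D4:**
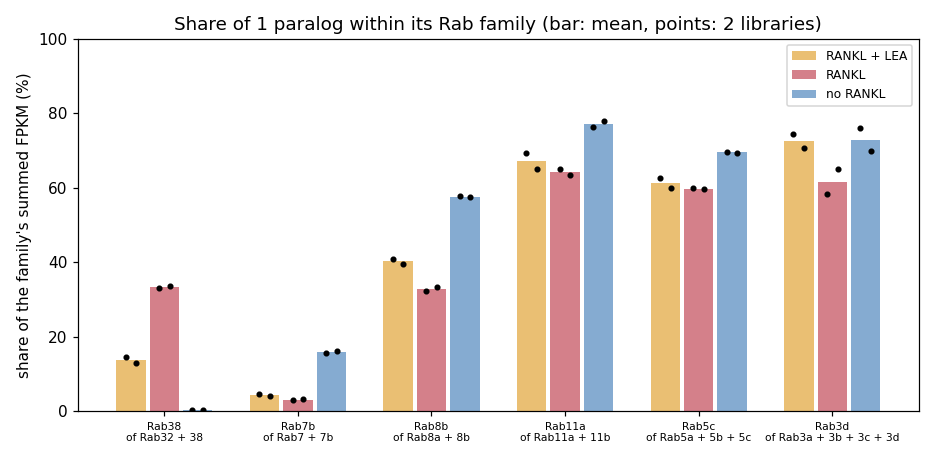
Share in percent of 1 paralog in the summed FPKM of its family, with bars at the mean and points for the 2 libraries of each condition. Rab38 makes up 32.9% and 33.6% of the Rab32 and Rab38 sum in RANKL, against 0.22% and 0.358% in no RANKL, and Rab7b and Rab8b have their lowest shares in RANKL.

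The proteins that act on Rabs were listed apart. Of 31 exchange factors tested, 8 (25.8%) rose and 9 (29.0%) fell in RANKL, against 17.8% of all genes in each direction, with a median log2 fold change of -0.13. Rab3il1, an exchange factor of Rab8 and Rab3a, was at 6.26 ± 0.387 FPKM in RANKL + LEA, 3.96 ± 0.0255 FPKM in RANKL and 53.3 ± 1.85 FPKM in no RANKL. It fell by 3.72 ± 0.11 (SE) on the log2 scale in RANKL (limma adjusted p = 1.8e-07). Dennd2c, which acts on Rab9, averaged 1.27, 0.726 and 4.06 FPKM in RANKL + LEA, RANKL and no RANKL, and Dennd1a, which acts on Rab35, averaged 7.21, 5.72 and 16.6 FPKM. In RANKL the log2 fold changes were -2.34 for Dennd2c and -1.52 for Dennd1a, and 2.71 for Rin1, an exchange factor of Rab5, with limma adjusted p of 1.5e-05, 3.2e-05 and 3.3e-05. The size for Rin1 depended on the settings, and over the alternatives it ran between 1.36 and 3.13. With LEA, Rab3il1 (log2 fold change 0.64, limma adjusted p = 0.0138) and Dennd2c (0.74, adjusted p = 0.0339) rose against RANKL and 0 exchange factors fell. Of the 31, 10 had an unadjusted limma p under 0.05, as did 2807 of all 11905 genes tested. Among genes named after their values were seen, Ccz1, a subunit of the exchange factor of Rab7, had a log2 fold change of 0.93 in RANKL (limma adjusted p = 1.2e-04). The other listed subunits, Mon1a and Mon1b, were not among the genes called in any comparison. Of the pair that together activates Rab32 and Rab38, Hps1 averaged 8.85, 9.97 and 10.1 FPKM and Hps4 3.54, 3.79 and 5.90 FPKM in RANKL + LEA, RANKL and no RANKL, and only Hps4 was called, lower in RANKL (log2 fold change -0.62, limma adjusted p = 0.0029).

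Among the lists of Rab regulators, the GAPs had the most genes called in 1 direction, and 10 of 31 tested (32.3%) rose in RANKL and 1 (3.23%) fell, against 17.8% of all genes in each direction, with a median log2 fold change of 0.16. Usp6nl, a GAP of Rab5, averaged 6.98, 9.52 and 3.17 FPKM in RANKL + LEA, RANKL and no RANKL, Tbc1d2b, a GAP of Rab22, 30.3, 42.2 and 16.8 FPKM, and Tbc1d8 14.9, 11.8 and 5.30 FPKM. Their log2 fold changes in RANKL were 1.56, 1.33 and 1.14 in this order (limma adjusted p = 2.0e-05, 3.2e-05 and 6.9e-05). Tbc1d14, which binds Rab11 at recycling endosomes, fell by 0.99 ± 0.11. With LEA, Tbc1d4, the GAP that holds back Rab10 in fat and muscle cells, fell by 0.61 ± 0.14 against RANKL (2.63 FPKM in RANKL + LEA and 4.05 FPKM in RANKL, limma adjusted p = 0.0410). Of 32 effectors and tethers, 7 (21.9%) rose and 4 (12.5%) fell in RANKL, near the 17.8% of all genes in each direction, and 2 (6.25%) fell with LEA, where 1.77% of all genes did. Those 2 were Rilpl2 and Rilpl1, which bind Rab8 and Rab10 after these are phosphorylated by LRRK2. Rilpl2 was at 46.7 ± 1.35 FPKM in RANKL + LEA, 79.1 ± 7.33 FPKM in RANKL and 14.7 ± 1.65 FPKM in no RANKL (SD, n = 2 each). It rose by 2.42 ± 0.12 on the log2 scale in RANKL (limma adjusted p = 2.4e-06) and fell by 0.76 ± 0.12 with LEA (adjusted p = 0.0118). For Rilpl1 the log2 fold changes were 1.83 in RANKL and -0.83 with LEA (adjusted p = 2.7e-05 and 0.0155). Micall1 and Rab11fip1, effectors at recycling endosomes, rose in RANKL by 1.62 and 1.44 (adjusted p = 5.1e-05 and 7.3e-05). The 3 Rab kinases had 0 calls in RANKL against no RANKL and in RANKL + LEA against RANKL, and 0 of them had an unadjusted limma p under 0.05 there. In RANKL + LEA against no RANKL, Lrrk2 was called higher (log2 fold change 0.60). That call ended with quantile normalization (limma adjusted p = 0.0843) and without a filter (0.0872), among other alternatives.

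Of 16 related small GTPases tested, 3 (18.8%) rose and 2 (12.5%) fell in RANKL, near the 17.8% of all genes in each direction. Rac2, which drives actin and the NADPH oxidase of blood cells, was at 108 ± 1.29 FPKM in RANKL + LEA, 178 ± 19.8 FPKM in RANKL and 51.5 ± 3.32 FPKM in no RANKL. Its log2 fold change was 1.78 ± 0.11 in RANKL (limma adjusted p = 8.5e-06) and -0.72 ± 0.11 with LEA (adjusted p = 0.0112). Arl8b, which moves lysosomes along microtubules, averaged 56.4, 74.1 and 41.8 FPKM in RANKL + LEA, RANKL and no RANKL, and Arf1, which recruits coats at the Golgi, 242, 275.0 and 173 FPKM. Both rose in RANKL, by 0.82 and 0.67 on the log2 scale (limma adjusted p = 0.00106 and 0.00246), and neither was called with LEA. Arf1 fell short of 1.5-fold in RANKL without RANKL replicate 1 (0.56) or no RANKL replicate 1 (0.57). Arl4c fell by 1.75 ± 0.29 in RANKL and rose by 1.24 ± 0.29 with LEA (adjusted p = 0.0015 and 0.0403), with 20.2 and 10.1 FPKM in the 2 libraries of RANKL + LEA and 6.82 and 5.30 FPKM in those of RANKL. Leaving out RANKL + LEA replicate 1 brought the log2 fold change of Arl4c with LEA to 0.74 (adjusted p = 0.108). Of the calls of list genes with LEA, those of Rilpl1, Rilpl2, Dennd2c and Tbc1d4 ended without any 1 of the 4 libraries compared, and those of Rab3il1, Rac2 and Arl4c without 3 of the 4.

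The 16 members under the filter were Rab3b, Rab3c, Rab6b, Rab9b, Rab15, Rab17, Rab25, Rab26, Rab27b, Rab30, Rab33a, Rab36, Rab37, Rab39b, Rab40b and Rab44. Rab6b, the neuronal partner of Rab6a, was at 0 in all libraries. Rab40b was at 0.101 and 0.119 FPKM in RANKL + LEA, 0.169 and 0.139 FPKM in RANKL, and 0 in both no RANKL libraries. Rab44, a large Rab studied in osteoclasts, was at 0.0260 and 0.0200 FPKM in RANKL + LEA, 0.143 and 0.0210 FPKM in RANKL, and 0.01 and 0 FPKM in no RANKL. Rab27b, the relative of Rab27a, reached at most 0.00600 FPKM in a library. None of the 16 exceeded 0.273 FPKM, the level of Rab30 in RANKL replicate 1. Without the filter Rab30 and Rab40b were called higher in RANKL than in no RANKL, on few reads. Reads were counted from both strands, so a value can hold reads of an overlapping gene. Rab24 shares 775 exon bases with Prelid1 on the opposite strand, which averaged 178 FPKM, and Rab4b shares 1016 bases with Gm21983 on the same strand, so their values are uncertain. Rab2b shares 2059 exon bases with Gm43766 on the opposite strand. Rab27a and Rab11a, both called lower in RANKL, share 149 bases with Gm27186 and 107 bases with Gm47308 on the same strand. The part of these overlaps in the levels was not tested. No exon shared with another gene of the GENCODE annotation was found for Rab38, Rab34, Rab32, Rab7b, Rab8b, Rab3d, Rab23, Rab19, Rab39 or Rab4a. The noncoding Rab10os was at 5.26 and 6.24 FPKM in RANKL + LEA, 6.23 and 4.88 FPKM in RANKL, and 4.40 and 5.13 FPKM in no RANKL, and shares 143 exon bases with Rab10. Rab26os averaged 2.43, 1.55 and 1.31 FPKM in RANKL + LEA, RANKL and no RANKL, and neither noncoding transcript was called in any comparison.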

How the data were processed

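Mouse bone marrow-derived macrophages gave 6 RNA-seq libraries. HISAT2 alignment to mm10 was followed by exon counting in HOMER, from both strands and for 1 transcript per gene, and the FPKM values that the authors deposited for each library were used. For HISAT2 and HOMER no version is given in the sources used here. The deposited table also holds the authors' own lists of changed genes, made with DESeq2, which were not used. Low FPKM values times exon length were whole multiples of 1 step per library (100.0% of 2523 to 2687 values, within 0.1 read), and this step gave the depth.

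The 11905 genes that reached 0.5 FPKM in at least 2 libraries entered 1 limma fit (version 3.58.1, R 4.3.3, eBayes with trend) of log2(FPKM + 0.1) over all 6 libraries, with 3 residual degrees of freedom. Benjamini-Hochberg adjustment ran over all genes tested, and genes were called at an adjusted p under 0.05 with 1.5-fold. The fit was tested on simulated data. With 2 libraries per group, permutation tests cannot pass 0.05 and were not run. The members and lists were chosen with earlier results of these data known. The text names every Rab gene and, from each list of Rab regulators and relatives, up to 4 genes with the smallest p for RANKL at a mean of 1 FPKM or more and each gene called with LEA, unless said otherwise. Lists covered Rab roles, exchange factors, GAPs, effectors, kinases, related GTPases and markers of osteoclasts, macrophages, mast cells, melanocytes, megakaryocytes, neurons, T cells, B cells, neutrophils, stroma and endothelium. The listed symbols Rab1, Rab41, Zfyve20, Dynlt1 and Trac matched no row. A further list is not reported here. Summed over 4 T cell, 4 B cell and 6 neutrophil markers, levels were under 1 FPKM in every library. Neuron markers summed to between 2.97 and 5.84 FPKM. Pf4, the only platelet marker of 5 that was tested, fell by 5.34 on the log2 scale in RANKL and was 1.87 higher with LEA than in RANKL. Stroma markers summed to 2.53 and 3.75 FPKM in RANKL + LEA, 2.63 and 2.56 FPKM in RANKL, and 6.27 and 6.54 FPKM in no RANKL, and endothelial markers to 3.79 and 3.39 FPKM, 2.95 and 2.92 FPKM, and 1.22 and 1.16 FPKM. The alternatives changed the fold limit, pseudocount, filter, scaling, variance estimate or libraries fitted, added a replicate block, replaced the fit by voom on recovered reads, or left out 1 library. Gene overlaps used the GENCODE annotation of GRCm38. Tables used pandas 2.3.3 and numpy 2.4.6 in Python 3.11.15, and figures matplotlib 3.10.9.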

Additional observations from a re-analysis of the deposited data

How the results depend on the processing

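In RANKL against no RANKL, 3 higher and 11 lower Rab genes became 5 higher without a filter on low values, where Rab30 and Rab40b joined. They became 5 higher and 14 lower with no fold limit, and 1 higher and 7 lower at 2-fold. Leaving out 1 library gave 3 to 4 higher and 10 to 13 lower. In RANKL + LEA against RANKL, the gene called lower was lost at a pseudocount of 0.01 FPKM (0, Rab38 at an adjusted p of 0.0509) and without a filter (0, adjusted p = 0.0861). The count of genes called higher was 2 by eBayes without a trend, 3 by limma voom, 3 with no fold limit and 0 at 2-fold, and with 1 library left out both counts ranged from 0 to 1. With median-of-ratios scaling Rab32 was just under 1.5-fold (log2 fold change 0.58), and Rab27a was called in its place (0.72, adjusted p = 0.0475). In RANKL + LEA against no RANKL, 4 higher and 11 lower genes became 1 higher and 4 lower at 2-fold, and with 1 library left out 3 to 4 higher and 7 to 11 lower. The call of Rab9 in that comparison also ended at a pseudocount of 0.01 or 1 FPKM and with quantile normalization or median-of-ratios scaling. It ended too without a filter (limma adjusted p = 0.120), with only the 4 libraries compared (0.0741) and by eBayes without a trend (0.0802). Rab23 and Rab43 lost their calls at a pseudocount of 1 FPKM, and Rab43 by voom. Rab3a and Rab40c were called lower with quantile normalization or median-of-ratios scaling. No called fold change of a named gene turned its sign under any alternative listed here. Among genes not called in RANKL, Rab32 and Rab5c were called lower without RANKL replicate 1 or no RANKL replicate 1 and Rab9 higher without no RANKL replicate 2. The call of Ctsk with LEA was lost at a pseudocount of 0.01 FPKM (adjusted p = 0.512), without a filter (0.117), with quantile normalization (0.108) and by eBayes without a trend (0.0701), and that of Rab42 against no RANKL without a filter (0.0950). Over all genes, 540 higher and 211 lower with LEA became 210 and 81 without a filter, 656 and 323 by voom, 706 and 321 with no fold limit, and 195 and 53 at 2-fold. At 2-fold, 2125 genes in each direction became 1178 higher and 1212 lower in RANKL, and 1846 and 1399 became 972 and 690 in RANKL + LEA against no RANKL. Over 43 tested Rab genes, 755 values stayed as they were, called or not, 10 gained a call and 9 lost one in RANKL against no RANKL. These counts were 756, 6 and 12 in RANKL + LEA against RANKL, and 726, 11 and 37 in RANKL + LEA against no RANKL. Most values that stayed belonged to genes without a call, which were 29, 41 and 28 of the 43 in this order. All 12 calls lost in RANKL + LEA against RANKL were of Rab38 and Rab32, the only genes called there. Leaving out a library also lowers the power of the test, and the causes of these changes were not tested.

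Replicate numbers are shared by the titles and not tied to a mouse or day. Deviations of same-numbered libraries correlated at 0.12 between RANKL + LEA and RANKL, -0.08 between RANKL and no RANKL, and -0.25 between RANKL + LEA and no RANKL across 11905 genes. With the replicate block, 3 Rab genes were called higher and 11 lower in RANKL, 1 and 1 in RANKL + LEA against RANKL, and 3 and 11 in RANKL + LEA against no RANKL, where Rab9 was at an adjusted p of 0.0526. The block also ended the calls of Dennd2c (adjusted p = 0.0623) and Tbc1d4 (0.0722) with LEA. The depth limits what can be said of the 16 members under 0.5 FPKM.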
